A study of Mus musculus with 8 samples.

Results

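The unfolded protein response (UPR) was examined through 10 genes that sense stress in the endoplasmic reticulum (ER) or carry its signal: Ern1, Ern2, Xbp1, Rtcb, Eif2ak3, Atf6, Atf6b, Atf4, Ddit3 and Trib3. They were taken by name, through the GENCODE symbol of each Ensembl ID, from a table of 55414 gene IDs of which 11929 passed the filter on low counts. All 10 passed it. RNA had been sequenced from Paneth cells of the small intestine of mice, sorted by flow cytometry, and the study's methods give C57BL/6J as the strain of its sorted Paneth cells. The series is titled as a profile of cells purified once mature Paneth cells had been depleted, so that the TG sort followed this depletion, whose extent was not analysed here. The TG group held 4 libraries (TG-1 to TG-4) from transgenic mice labelled DT TG, whose Paneth cells make diphtheria toxin, and the WT group held 4 libraries (WT-1 to WT-4) from wild type mice. The sources used here give neither the promoter behind the transgene nor the age of the mice, and the toxin transcript was not analysed. The labels give numbered replicates and do not name the mouse behind each, so that the p-values below measure the spread between libraries.

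The UPR is how a cell matches the folding capacity of its ER to the load of new secretory proteins. The kinase and endonuclease IRE1 cuts Xbp1 mRNA, and the ligase RTCB joins the ends into the message of an active transcription factor. The kinase PERK phosphorylates the initiation factor eIF2, which lowers general translation while raising that of ATF4, and ATF6 is released from the membrane by proteases as a transcription factor. Paneth cells secrete very large amounts of antimicrobial peptides, and loss of Xbp1 is known to damage them. Diphtheria toxin inactivates elongation factor eEF2 and so stops protein synthesis.

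The step that joins IRE1, Xbp1 and RTCB is the removal of 26 bases from exon 4 of 5 of the unspliced Xbp1 transcript, at chr11:5474278-5474303 on the plus strand of GRCm39. They are shown in capitals with 30 bases of the same exon on each side, because the measurements below cannot see this step:
Xbp1: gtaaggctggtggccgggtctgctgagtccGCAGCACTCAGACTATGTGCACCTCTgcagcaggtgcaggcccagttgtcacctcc
The stretch is that which one GENCODE model leaves out of the other, and moving it by up to 6 bases gives the same product. The unspliced reading frame codes for 267 residues and the spliced frame for 371. A count per gene adds both forms together, so that Xbp1 counts say nothing of how much had been spliced.

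Library totals were 13107397 to 16218434 counts in TG and 13601510 to 15018711 in WT. Replicates 1 and 2 of both groups had 0 Y-linked counts and replicates 3 and 4 had 897 to 1564, so that the groups were balanced for this difference. The label of purified Paneth cells was checked with 7 markers, whose summed level was 370150 to 454520 CPM in TG and 351230 to 529800 in WT. CPM here are counts scaled to the library total and edgeR's TMM factor. Of these markers 3 were lower in TG (Mmp7, Ang4 and Mptx2). Of 5 immune and 4 stromal markers, 4 and 4 were below 1 CPM in every library. The remaining one was Lyz2, a lysozyme gene of macrophages, at 8.31 to 29.2 CPM in TG and 11.7 to 18.0 in WT, which was not called (adjusted p = 0.484). The 4 stem cell markers summed to 1620 to 2355 CPM in TG and 1549 to 2226 in WT, with 1 of them, Smoc2, lower. The 4 tuft markers summed to 19.3 to 62.3 CPM in TG and 21.2 to 45.3 in WT. For the 5 enteroendocrine markers these were 20.2 to 32.5 and 26.4 to 57.1 CPM. The tuft and enteroendocrine markers gave 0 calls, beside 17.9% of all tested genes. The 8 enterocyte markers had a summed level of 116 to 253 CPM in TG against 54.3 to 101 in WT. Among the enterocyte markers 4 were called higher in TG, beside 8.26% of all tested genes. Of these, Apob and Mttp passed the filter on low counts in both groups. Alpi and Apoa4, with 4 to 24 and 3 to 35 counts in WT, passed it through TG alone, and their calls are given as a description. In bulk RNA, fewer cells of a type and less RNA per cell cannot be told apart.

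Levels between genes were compared per kilobase of exon. In WT, Atf4 ranked first with 123 ± 8.73 CPM per kb (SD, n = 4), at percentile 99.0 of the tested genes over both groups. Ern2 followed with 56.1 ± 9.05 CPM per kb and Xbp1 with 47.9 ± 7.74, and the ranges of this pair overlapped. Ern2, the IRE1 paralogue of mucosal epithelium, therefore stood above its ubiquitous relative Ern1, at 16.3 ± 1.93 CPM per kb. Between Xbp1 and Ern1 lay Atf6b with 25.7 ± 2.03 CPM per kb and Rtcb with 21.6 ± 0.822. Eif2ak3, which codes for PERK, had 13.1 ± 1.08 CPM per kb and Atf6 had 10.7 ± 1.27. Trib3 and Ddit3 closed the order at 0.982 ± 0.549 and 0.727 ± 0.0959 CPM per kb, again with overlapping ranges, and Ddit3 sat at percentile 18.6 of the tested genes. Every other pair of neighbours in this order had separate ranges in WT. In TG the same order held except that Ern1 (19.2 ± 1.75 CPM per kb) stood above Rtcb (18.9 ± 0.873). Where the longest transcript was used as the length, 4 of the 10 ranks in WT changed: Xbp1 passed Ern2, and Rtcb passed Atf6b.

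Among the members of the IRE1 arm none passed the test between TG and WT, called at an adjusted p under 0.05 by edgeR's quasi-likelihood test. Over all tested genes 17.9% were called in either direction. Ern1 (chr11:106283818-106378686, minus strand, GRCm39 as for all positions here) had 207, 209.7, 173 and 185 CPM in TG-1 to TG-4 and 154, 190.0, 146 and 169.5 CPM in WT-1 to WT-4. Both TG libraries without Y-linked counts were above every WT library, while the other two lay below WT-2. The log2 fold change of Ern1, TG over WT, was 0.23 ± 0.10 (SE), with a 95% interval of 0.02 to 0.45 and an adjusted p of 0.127. Without WT-2 it became 0.31 with an adjusted p of 0.0459. Ern2 (chr7:121769116-121785468, minus strand) had 199, 179, 191 and 171 CPM in TG and 139, 202, 178 and 155 CPM in WT. The TG values fell inside the WT range, with a log2 fold change of 0.13 ± 0.11 (interval -0.10 to 0.37, adjusted p = 0.419). It was 0.05 without WT-1, 0.23 without WT-2 and 0.23 with total counts, and was called in none of these. Ern2 is also known from goblet cells, whose 7 markers summed to 8547 to 11834 CPM in TG and 10745 to 12499 in WT. Of these 0 of 7 were called, beside 17.9% of all tested genes. Their log2 fold changes ran from -0.65 for Agr2, whose groups did not overlap (adjusted p = 0.0532), to 1.35 for Zg16 (adjusted p = 0.25). The part of goblet cells in the level of Ern2 was not tested. The ratio of Ern2 to Ern1 per kilobase within a library, which needs no scaling factor, was 3.23 ± 0.359 in TG and 3.45 ± 0.494 in WT, and did not pass an exact two-sided permutation test (p = 0.514, adjusted over 4 ratios 0.771).

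Xbp1 (chr11:5470606-5483027, plus strand), whose product drives genes of secretion and ER-associated degradation, had 369, 283, 321 and 359 CPM in TG and 408, 333, 296 and 292 CPM in WT. The group means were 333 ± 39.4 and 332 ± 53.7 CPM (SD, n = 4 each). The ranges overlapped, with TG-2 below every WT library and WT-1 above every TG library. The difference in Xbp1 was 0.00 ± 0.12 on the log2 scale, with an interval of -0.25 to 0.26 (adjusted p = 0.987), which leaves room for a change of the total message of that size in either direction. Rtcb (chr10:85774488-85793700, minus strand), the ligase, had 69.7, 74.2, 75.2 and 68.3 CPM in TG and 82.2, 78.0, 84.8 and 84.5 CPM in WT. Its groups did not overlap, yet the log2 fold change of -0.20 ± 0.08 (interval -0.36 to -0.03) missed the threshold with an adjusted p of 0.0936. DESeq2 put it on the other side, at an adjusted p of 0.0462. Over all tested genes, 12.0% had every TG library below every WT library. Xbp1 and Rtcb overlap other genes on the opposite strand, as does Ddit3, and the strand setting of the counting is not given, so that reads of overlapping partners may be included.

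**Figure D1:**
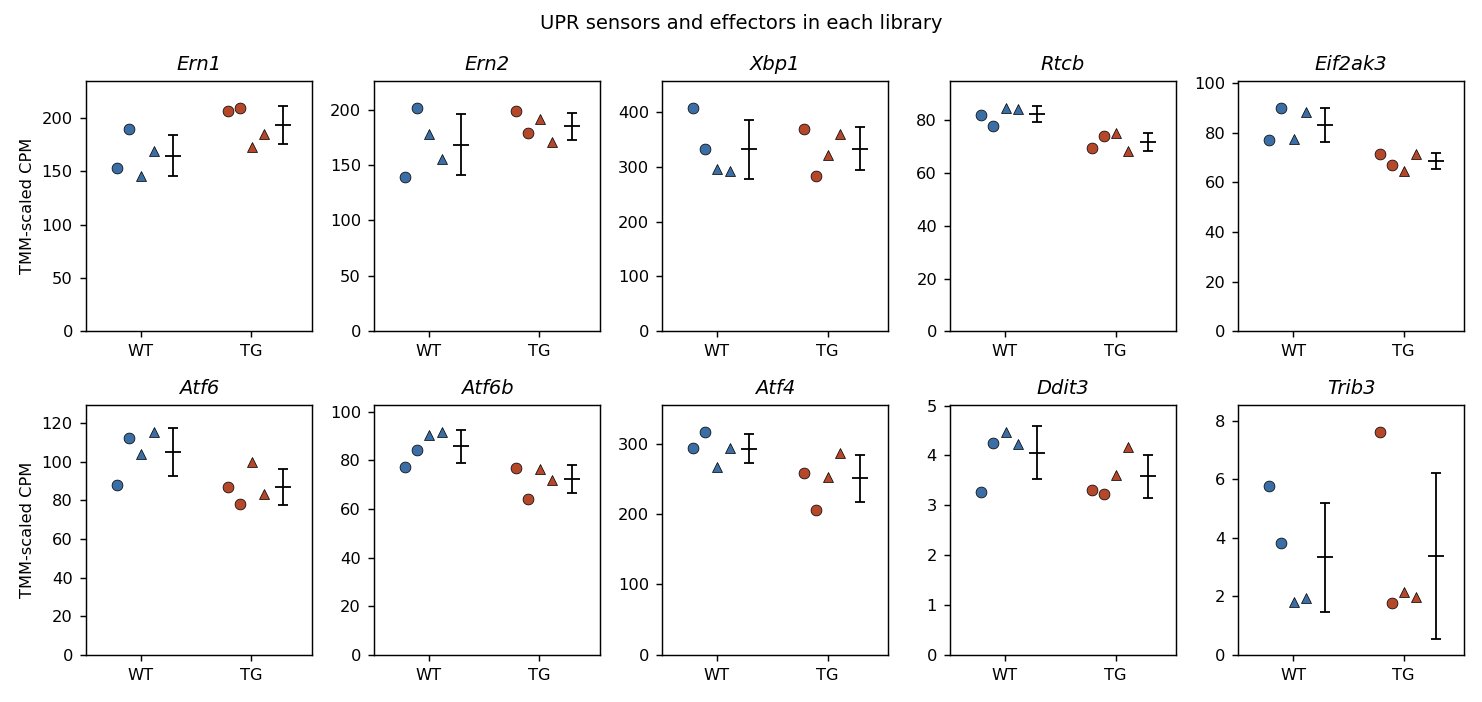
TMM-scaled CPM of the 10 UPR genes in each WT (blue) and TG (red) library, with circles for libraries without and triangles for libraries with Y-linked counts, and bars for mean ± SD (n = 4). Rtcb, Eif2ak3 and Atf6b are the 3 genes whose groups do not overlap, and Trib3 shows 7.62 CPM in TG-1 against 1.76 to 2.14 in the other TG libraries.

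In the PERK arm the sensor itself was lower in TG. Eif2ak3 (chr6:70821461-70882235, plus strand) had 71.4, 66.8, 64.7 and 71.3 CPM in TG and 77.1, 90.0, 77.5 and 88.2 CPM in WT. Each of the 4 TG libraries was below each WT library, and the mean went from 83.2 ± 6.85 CPM in WT to 68.6 ± 3.36 in TG. This is a log2 fold change of -0.28 ± 0.09 (interval -0.46 to -0.10), or 17.6% lower, with an edgeR adjusted p of 0.0354. Eif2ak3 was the one called gene among the 10. The fitted change was -0.28 within the libraries with Y-linked counts and -0.27 within those without, though neither was called with 2 libraries a group. The call was lost when total counts set the scale (-0.17, adjusted p = 0.383), and also without TG-1, TG-2, TG-3, WT-2 or WT-4, where the fold change lay between -0.29 and -0.24 and the adjusted p between 0.0712 and 0.101.

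Atf4 (chr15:80139372-80141745, plus strand), the transcription factor whose translation rises when eIF2 is phosphorylated, had 258, 206, 252 and 286 CPM in TG and 294, 317, 266 and 293.5 CPM in WT. TG-1 to TG-3 were below every WT library and TG-4 lay among them. The log2 fold change of -0.23 ± 0.11 (interval -0.45 to -0.001) had an adjusted p of 0.149. It was -0.05 in the libraries with Y-linked counts, -0.40 in those without and -0.14 without TG-2, and was not called in any of these. Control of Atf4 acts largely on translation, which counts of mRNA do not measure.

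Ddit3, which codes for the pro-apoptotic factor CHOP (chr10:127124268-127132163, plus strand), was near the floor of the assay with 41 to 67 counts a library. It had 3.31, 3.23, 3.61 and 4.18 CPM in TG and 3.27, 4.24, 4.48 and 4.24 CPM in WT, with overlapping groups. A log2 difference of -0.18 ± 0.19 was fitted (adjusted p = 0.525), and its interval of -0.59 to 0.22 leaves room for a change in either direction. Trib3 (chr2:152179337-152191958, minus strand), a pseudokinase induced by ATF4 and CHOP, had 7.62, 1.76, 2.14 and 1.97 CPM in TG and 5.75, 3.83, 1.805 and 1.93 CPM in WT, from 25 to 122 counts. One TG library and the WT pair without Y-linked counts were high, and the other 5 were close to one another. The log2 fold change of 0.04 ± 0.58 had an interval of -1.28 to 1.36 (adjusted p = 0.969), the widest of the 10, and it went to -0.74 without TG-1.

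In the ATF6 arm both paralogues were fitted below 0 and neither was called by edgeR. Atf6 (chr1:170532026-170696208, minus strand), the membrane-bound sensor and activator of chaperone genes, had 86.8, 78.2, 99.7 and 83.2 CPM in TG and 87.8, 112, 104 and 116 CPM in WT. WT-1 lay inside the TG range and the remaining WT libraries lay above it. The log2 fold change was -0.27 ± 0.10 (interval -0.49 to -0.05, adjusted p = 0.0850). Atf6b (chr17:34866091-34874056, plus strand), the related factor, had 76.8, 64.2, 76.5 and 71.9 CPM in TG and 77.1, 84.1, 90.6 and 91.9 CPM in WT. Its groups did not overlap, by a narrow margin between TG-1 and WT-1, and the log2 fold change was -0.25 ± 0.09 (interval -0.44 to -0.06, adjusted p = 0.0686). Limma voom with quality weights called both, at -0.30 with an adjusted p of 0.0370 for Atf6 and -0.27 with 0.0416 for Atf6b. The ratio of Atf6b to Atf6 per kilobase was 2.45 ± 0.153 in TG and 2.41 ± 0.184 in WT, and did not pass the exact permutation test (p = 0.771).

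Over the 10 genes, 1 was lower, 0 were higher and 9 were not called by edgeR. The background for lower was 9.65% of tested genes and for higher 8.26%. At an unadjusted p under 0.05, 5 of the 10 were lower and 1 was higher, beside 17.1% and 16.0% of all tested genes. DESeq2 called 3 lower and 0 higher, beside 11.0% and 8.76% of the same tested genes, and limma voom called 3 lower and 0 higher, beside 11.1% and 9.96%. The fitted change was below 0 for 6 genes. The median log2 fold change of the 10 was -0.19, beside 0.01 for all tested genes. With total counts the median of all genes moved to 0.12 and that of the 10 to -0.08, and the 6 genes fitted below 0 stayed there, between -0.17 and -0.08. In 3 of the 10 genes every TG library was below every WT library, as it was in 12.0% of all tested genes. A term for a different change in the libraries that had Y-linked counts was called for 0 of the 10 genes, with adjusted p of 0.898 to 0.997 and 0 at an unadjusted p under 0.05. Over all tested genes it was called for 0.0251%.

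**Figure D2:**
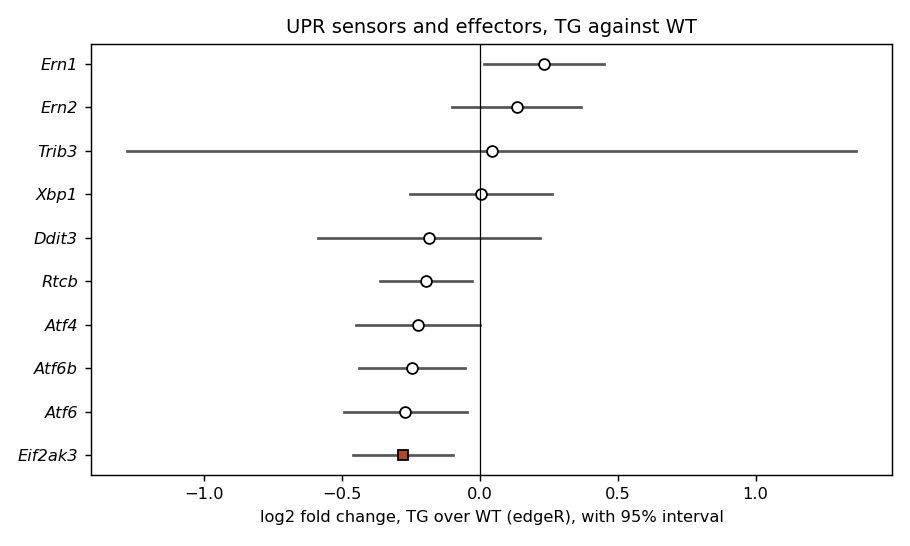
Log2 fold change of the 10 UPR genes, TG over WT, from edgeR on 4 libraries a group, with lines for 95% intervals, a red square for the called gene and open circles for the others. Eif2ak3 is lowest at -0.28, Ern1 highest at 0.23, and Trib3 has the widest interval, from -1.28 to 1.36.

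The other genes of the pathway were taken from 7 lists of 84 genes, of which 79 were tested. The lists held targets of XBP1, of ATF6 and of ATF4 and CHOP, substrates of IRE1-dependent decay, and 3 lists of partners and relatives of the sensors, such as eIF2, the RTCB ligase complex and the proteases that release ATF6, which are not readouts downstream of them. Of these, 30 were lower (38.0%) and 1 was higher, beside 9.65% lower and 8.26% higher among all tested genes, which is the background of each edgeR count of a list given next. The XBP1 targets, which serve translocation, folding and degradation at the ER, included 9 lower and 0 higher of 13 (69.2% lower), with a median log2 fold change of -0.41. No gene of this list was higher at an unadjusted p under 0.05, nor by DESeq2 or limma voom. Dnajb9, the ER co-chaperone ERdj4 and a standard readout of spliced XBP1, had 84.5, 73.5, 84.8 and 94.5 CPM in TG and 128, 169.5, 122 and 178.5 CPM in WT. The groups stood well apart, with a log2 fold change of -0.83 ± 0.13 (adjusted p = 0.00139). Wfs1, the wolframin membrane protein of the ER, fell by 0.53 on the log2 scale (SE 0.10, adjusted p = 0.00403). Syvn1, the ubiquitin ligase of ER-associated degradation, fell by 0.60 (SE 0.13, adjusted p = 0.0061).

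Xbp1 and Dnajb9 thus gave different pictures in the same libraries. Within a library, Dnajb9 per kilobase was 0.381, 0.432, 0.439 and 0.438 of Xbp1 in TG-1 to TG-4 and 0.523, 0.846, 0.686 and 1.02 in WT-1 to WT-4. The highest TG ratio was below the lowest WT ratio, and the means were 0.422 ± 0.0279 and 0.768 ± 0.212 (SD, n = 4 each). The difference of -0.82 in the mean log2 ratio reached p = 0.0286 in the exact permutation test, the lowest value open to 70 assignments. It did not pass the correction over the 4 ratios (adjusted p = 0.114), which no ratio could have passed alone.

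**Figure D3:**
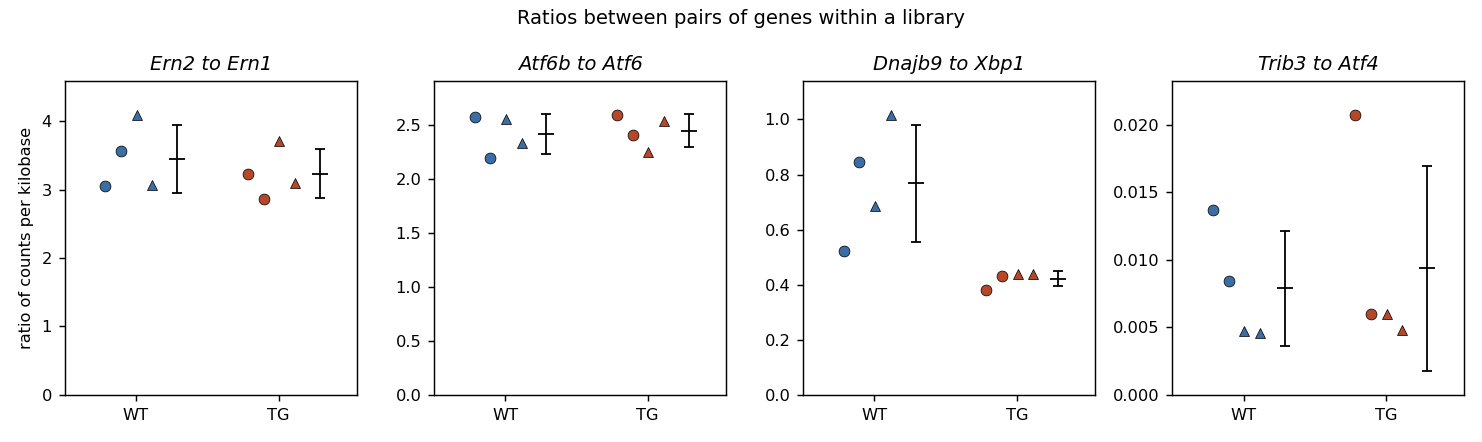
Ratios between pairs of genes, each from counts per kilobase of exon within a library, for WT (blue) and TG (red), with circles for libraries without and triangles for libraries with Y-linked counts, and bars for mean ± SD (n = 4). The ratio of Dnajb9 to Xbp1 is 0.381 to 0.439 in TG and 0.523 to 1.02 in WT, and the other 3 ratios overlap between the groups.

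ATF6 targets, mostly chaperones and disulfide isomerases, had the lowest median of the 7 lists, a log2 fold change of -0.68, with 9 lower and 0 higher of 13 (69.2% lower). Again 0 were higher at an unadjusted p under 0.05 or by the other tools. Hspa5, the chaperone BiP that holds the sensors inactive, had 665, 529, 797 and 833 CPM in TG and 947, 1329, 1402 and 1857 CPM in WT. Every TG library was below every WT library, and the log2 fold change was -0.97 ± 0.19 (adjusted p = 0.00661). Manf, a secreted ER stress factor, fell by 0.88 on the log2 scale (SE 0.16, adjusted p = 0.00442), and Calr, the lectin chaperone calreticulin, fell by 0.68 (SE 0.14, adjusted p = 0.0050).

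The promoters of these genes were searched on both strands, from 250 bases before to 50 after the GENCODE start, for the ER stress response element (ERSE, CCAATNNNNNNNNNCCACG), through which ATF6 and XBP1 are known to act. It was found in 6 of 13 ATF6 target promoters (46.2%) and in 2 of 13 XBP1 target promoters (15.4%), compared with 27 of 21614 protein-coding promoters (0.125%). The lists were chosen as known targets of these factors, so that the excess follows from that choice and is not independent evidence. None of the 10 sensors and effectors held the element in this window. The 8 target genes that did are shown on the strand where the element reads 5′ to 3′, with its fixed letters in capitals and 5 bases on each side (GRCm39), since they include both called and uncalled genes:
Hspa5, chr2:34662032-34662060, plus strand: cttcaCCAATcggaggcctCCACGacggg
Calr, chr8:85573699-85573727, plus strand: atgggCCAATgagggtcgaCCACGcgttg
Pdia6, chr12:17316487-17316515, plus strand: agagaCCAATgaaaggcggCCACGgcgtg
Creld2, chr15:88703718-88703746, minus strand: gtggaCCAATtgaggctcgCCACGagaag
Dnajc3, chr14:119175234-119175262, plus strand: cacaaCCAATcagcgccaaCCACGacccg
Syvn1, chr19:6096557-6096585, plus strand: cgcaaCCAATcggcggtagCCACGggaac
Hsp90b1, chr10:86541497-86541525, minus strand: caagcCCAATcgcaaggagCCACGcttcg
Hsp90b1, chr10:86541392-86541420, plus strand: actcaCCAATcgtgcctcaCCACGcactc
Derl3, chr10:75729071-75729099, minus strand: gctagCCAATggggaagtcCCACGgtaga
The first 6 genes named here were lower in TG. Hsp90b1, the chaperone GRP94, which held the element in 2 places, had a log2 fold change of -0.38 ± 0.20 (adjusted p = 0.201). Derl3, a component of ER-associated degradation, had 0.12 ± 0.24 (adjusted p = 0.761). Over all 15 tested genes with the element, 6 were lower (40.0%) and 0 higher, with a median log2 fold change of -0.34. The 7 of them outside the lists had a median of 0.09, with 0 calls by edgeR, 2 lower and 1 higher at an unadjusted p under 0.05, 1 lower and 1 higher by DESeq2, and 2 lower and 1 higher by limma voom. Over all tested genes these shares were 17.1% lower and 16.0% higher unadjusted, 11.0% and 8.76% by DESeq2, and 11.1% and 9.96% by limma voom. Counts of 1 among 7 are thus near the background, and 7 genes are too few to read counts of 2. The log2 fold changes of these 7 were -0.34 (Alg12), -0.24 (Canx), -0.12 (Hnrnpa3), 0.09 (Ero1b), 0.10 (Xlr3a), 0.46 (Ttc41) and 0.48 (Pan2). Xlr3a and Ttc41 were low, at means of 1.81 and 1.89 CPM. The UPR element (UPRE, TGACGTGG), whose opposite strand begins with the letters that close the ERSE, lay in 1 of 13 promoters of each target list and 0.722% of protein-coding promoters. The cyclic AMP response element (CRE, TGACGTCA), which shares its first letters with the UPRE, lay in 0 of 13 of each and 2.44% of all. Neither was found in the windows of the 10 sensors and effectors. A match of letters is a description and not evidence of binding.

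ATF4 and CHOP targets were more mixed, with 6 lower and 0 higher of 22 tested (27.3% lower) and a median log2 fold change of -0.25. At an unadjusted p under 0.05, 8 were lower and 1 was higher (17.1% and 16.0% of all tested genes), and DESeq2 and limma voom called 0 higher. The fitted changes ran from -1.35 for Psat1, an enzyme of serine synthesis named here after its value was seen, to 0.62 for Tnfrsf10b, a death receptor induced by CHOP whose change was not called (adjusted p = 0.191). Ero1a, the ER oxidase, had 31.2, 28.1, 31.1 and 31.0 CPM in TG and 68.6, 70.2, 53.5 and 58.8 CPM in WT. It had the smallest p of the list, with a log2 fold change of -1.05 ± 0.10 (adjusted p = 6.95e-05). Atf5, a transcription factor under the same translational control as Atf4, fell by 1.02 on the log2 scale (SE 0.22, adjusted p = 0.00752), and Cebpb, a partner of CHOP, fell by 0.68 (SE 0.16, adjusted p = 0.0125).

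Trib3 shared its pattern between libraries with Chac1, a glutathione-degrading enzyme induced by ATF4, named here after its values were seen. Chac1 had 41.0, 2.67, 5.41 and 4.78 CPM in TG and 40.9, 34.7, 6.89 and 6.17 CPM in WT. Both genes were high in TG-1, WT-1 and WT-2 and low in the other 5 libraries. The highest library was 15.3 times the lowest for Chac1 and 4.34 times for Trib3, compared with at most 1.54 times for each of the other 9 sensors and effectors. Among the targets, Psat1 (6.35 times) and Slc7a11 (4.67 times) also varied more than Trib3. TG-1 over the mean of the other TG libraries was 9.56 for Chac1, 3.89 for Trib3 and at most 2.58 for other tested targets (Slc7a11). The mean of WT-1 and WT-2 over that of WT-3 and WT-4 was 5.79, 2.56 and at most 1.92 (Gdf15). The ratio of Trib3 to Atf4 per kilobase was 0.00938 ± 0.0076 in TG and 0.00788 ± 0.00427 in WT (exact permutation p = 0.771). The C/EBP-ATF response element (CARE, TGATGNAA), to which ATF4 binds with C/EBP partners, was found in 5 of 23 promoters of this list (21.7%) and in 3.84% of protein-coding promoters. The list was chosen as targets of ATF4 and CHOP, so that this excess is again not independent evidence. Chac1 held the element, as did Ddit3 as 1 of the 10 sensors and effectors, and the window of Trib3 did not. Both sites are shown with 10 bases on each side, on the strand where the element reads 5′ to 3′:
Ddit3, chr10:127126351-127126378, minus strand: ggggcggggaTGATGcAAtgtttggcaa
Chac1, chr2:119181520-119181547, minus strand: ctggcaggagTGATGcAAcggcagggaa
The capitals are the fixed letters. Ddit3 varied between libraries by at most 1.39 times, and a link between the element and the level was not tested.

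**Figure D4:**
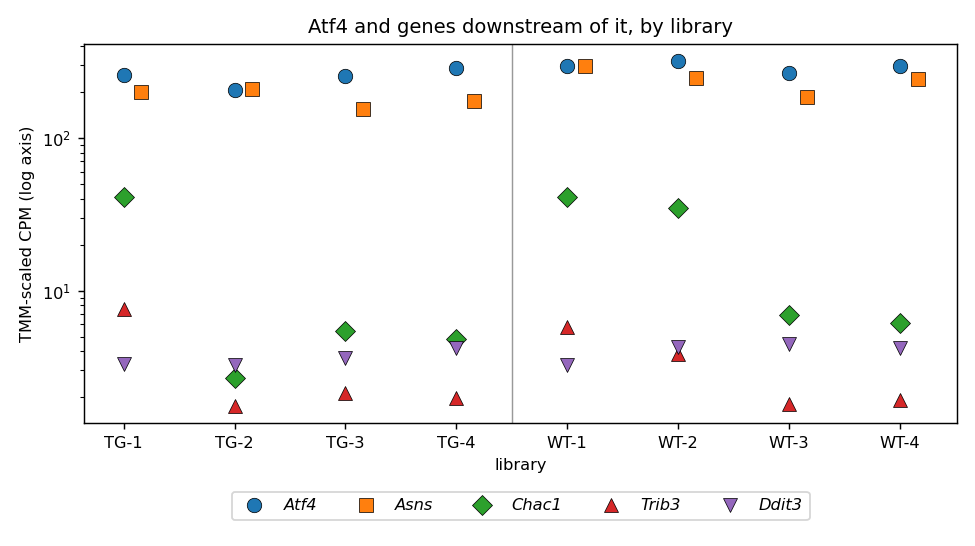
TMM-scaled CPM (log axis) of Atf4, Ddit3, Trib3 and the ATF4 targets Asns and Chac1 in each of the 8 libraries. Chac1 lies at 34.7 to 41.0 CPM in TG-1, WT-1 and WT-2 and at 2.67 to 6.89 in the others, while Atf4 stays between 206 and 317 CPM.

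Around PERK, the list of the other eIF2 kinases, eIF2, its exchange factor eIF2B and PERK partners held 6 lower and 0 higher of 14 (42.9% lower), with a median log2 fold change of -0.24. At an unadjusted p under 0.05, 7 were lower and 1 was higher (17.1% and 16.0% of all), and DESeq2 and limma voom called 0 higher. The other kinases Eif2ak1, Eif2ak2 and Eif2ak4, which sense haem, double-stranded RNA and amino acid shortage, were not called, with log2 fold changes of 0.07, -0.05 and 0.24. Of the 3 eIF2 subunits, alpha and beta were lower, Eif2s1 by 0.45 on the log2 scale (SE 0.09, adjusted p = 0.00462) and Eif2s2 by 0.45 (SE 0.09, adjusted p = 0.00384). The gamma subunit, Eif2s3x, had a log2 fold change of -0.15 with overlapping groups and was not called (adjusted p = 0.574). This gene lies on the X chromosome, with 16.5, 18.6, 12.2 and 11.8 CPM in TG and 19.5, 18.4, 14.8 and 12.9 CPM in WT. In both groups it was lower in the libraries with Y-linked counts, which adds to the spread of the test. The Y-linked gene Eif2s3y was not in the list, so that the total gamma message was not measured. Of the 5 eIF2B subunits 4 were lower, with Eif2b5, the catalytic epsilon subunit, down by 0.34 (SE 0.08, adjusted p = 0.0147). The remaining subunit, Eif2b2, had a log2 fold change of -0.07 and was not called.

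The RTCB ligase complex with the signalling partners of IRE1 gave 0 calls of 7 with edgeR, where 2 were lower at an unadjusted p under 0.05, DESeq2 called 0 and limma voom called 1 lower. Of all tested genes 17.1% were lower unadjusted and 11.1% by limma voom, so that 1 of 7 is near the background. The median log2 fold change was -0.15. Substrates of IRE1-dependent decay were mostly too low to test, with 3 of 7 tested, 0 called by edgeR, DESeq2 or limma voom and 1 lower at an unadjusted p under 0.05, beside the same 17.1%. Bloc1s1, the standard readout of this decay, was at 0.831 ± 0.262 CPM in TG and 0.622 ± 0.156 in WT and was not tested. Of the proteases that release ATF6 and the factors related to it, 0 of 7 were lower and 1 was higher, with a median of -0.07 that turned to 0.04 with total counts and 0.05 in the libraries with Y-linked counts. At an unadjusted p under 0.05, 0 were lower and 2 were higher, DESeq2 called 0 lower and 2 higher, and limma voom called 0 lower and 1 higher. For higher, the shares of all tested genes were 16.0%, 8.76% and 9.96%. The protease gene Mbtps1, named after its value was seen, had 82.3 to 83.7 CPM in TG and 68.9 to 76.7 in WT, with a log2 fold change of 0.21 ± 0.08 (adjusted p = 0.0726). The higher gene was Creb3l3, an ER-bound factor of liver and intestine, with 3.31, 4.64, 1.64 and 3.11 CPM in TG and 0.240, 0, 0.134 and 0.446 in WT. In WT these are 3, 0, 2 and 6 counts, so that Creb3l3 passed the filter on low counts through TG alone and its call is given as a description. The summed level of the enterocyte markers described above was also higher in every TG library than in any WT library, and its part was not tested.

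**Figure D5:**
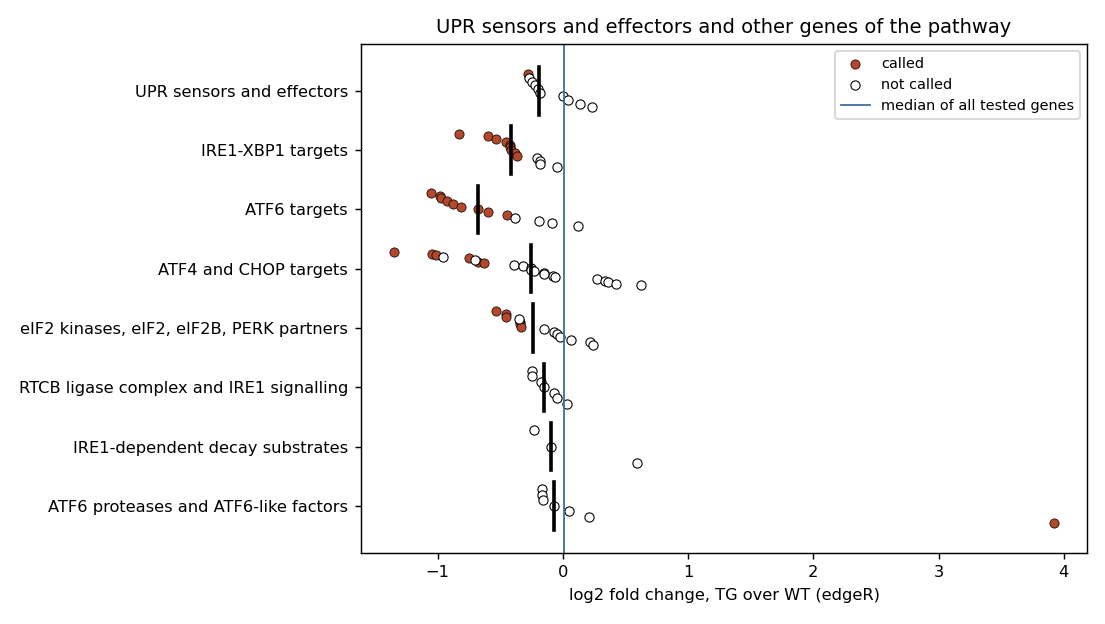
Log2 fold changes, TG over WT (edgeR, 4 libraries a group), of the 10 sensors and effectors and of 7 lists of other UPR genes, with filled points for called genes, open points for the others, black bars for list medians and a blue line for the median of all tested genes. The list medians run from -0.68 for ATF6 targets to -0.07 for ATF6 proteases and ATF6-like factors, the last of which is 0.04 with total counts, and Creb3l3, with at most 6 counts in a WT library, stands alone at 3.92.

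In smaller sets of libraries the medians of the 4 lists with lower calls stayed below 0, while the number of calls went down in most sets and up in some. The share of all tested genes that was called lower moved as well, from 9.65% with all libraries, and is given beside each count. Within the 4 libraries with Y-linked counts, 6 ATF6 targets and 3 ATF4 and CHOP targets were lower, and 0 XBP1 targets and 0 of the eIF2 list were called, with medians of -0.29 and -0.18, where 0.857% of all tested genes were lower. Within the 4 libraries without them, 7 ATF6 targets, 5 XBP1 targets, 3 ATF4 and CHOP targets and 3 of the eIF2 list were lower (5.29% of all tested genes), and 1 ATF4 and CHOP target was higher (4.15%). Without TG-1, 4 ATF6 targets, 4 XBP1 targets and 2 of the eIF2 list were lower, beside 4.61% of all. Without TG-2 these counts were 5, 4 and 2 (4.72% of all), and without WT-4, 4 XBP1 targets were lower (7.04%). Without WT-1, 10 ATF6 targets were lower (7.76% of all), and without WT-3, 7 ATF4 and CHOP targets and 7 of the eIF2 list (8.91%). Calls of higher level were added for 1 ATF4 and CHOP target without TG-4 (7.18% of all higher) and for the kinase gene Eif2ak4 without WT-2 (8.62%). When total counts set the scale, 5 ATF6 targets, 2 XBP1 targets, 3 ATF4 and CHOP targets and 0 of the eIF2 list were lower, beside 2.20% of all tested genes. The medians of these 4 lists moved to -0.58, -0.30, -0.12 and -0.12. That of the RTCB list moved to -0.03, that of the decay substrates to 0.02 and that of all tested genes to 0.12. These lists were drawn up with earlier results of these libraries known, and their direction is not independent evidence.

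The genes most like 4 of the members were sought by the root mean square difference of standardised log2 CPM over the 8 libraries, among 8121 tested genes with a mean log2 CPM of at least 3. Ern2 was closest to Mapk8ip3 (0.132), Ddx17 (0.139) and Snrnp70 (0.156). Ern1 came nearest to Cd244a (0.201), Ip6k1 (0.251) and Lama5 (0.263). For Atf4 these were C1d (0.141), Arfgap3 (0.245) and Polr3d (0.278). Xbp1 had no neighbour as near as these, with Sgsm1 at 0.380, Carhsp1 at 0.386 and Nipsnap2 at 0.389. The libraries share their depth and scaling across genes, and the distances are given without a test.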

How the data were processed

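Bulk RNA-seq had been done on flow-sorted mouse Paneth cells with a stranded mRNA kit. The authors deposited whole-number counts for each Ensembl gene and library in a single table, and 0 of its per-sample columns were left unused. The submitters' processing notes name FastQC 0.12.0, STAR 2.7.0a, DESeq2 and the mm39 build. What counted the reads, its strand setting and its handling of reads with several alignments is not given in the sources used here. Symbols, positions and exon lengths were added from GENCODE M39 on GRCm39, which matched 54749 of 55414 IDs, and where IDs shared a symbol, that with most counts was used.

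TG was compared with WT, 4 libraries each, by a robust quasi-likelihood fit of edgeR 4.0.16 (R 4.3.3) to the deposited counts, with TMM scaling and edgeR's own filter on low counts. Adjusted p are Benjamini-Hochberg values over 11929 genes, with a threshold of 0.05. Standard errors are the log2 fold change over the root of its F statistic, and intervals are 95% t intervals from the fit. For ratios of counts per kilobase, log2 ratios entered exact two-sided permutation tests. The steps were tested on simulated data. Library totals of at least 13107397 counts left 41 to 67 counts for Ddit3, a coarse estimate. Alternatives were DESeq2 1.42.0, voom with quality weights in limma 3.58.1, other scalings (RLE, total counts, sizes without alpha-defensin genes), other filters (1 CPM in 4 libraries, or none), terms for replicate number and Y-linked counts, and subsets of libraries.

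The 10 genes, the lists, the tests and the alternatives were chosen with earlier results of these data known. Named genes were the 10, the up to 3 called genes with the smallest p in each list, genes in a ratio, and the 3 genes nearest to Ern1, Ern2, Xbp1 and Atf4. The 15 tested genes with the ER stress element were named for that sequence. Chac1, Psat1, Tnfrsf10b, Slc7a11, Gdf15, Bloc1s1, Asns, Mbtps1, Eif2b2, Eif2s3x and the eIF2 kinases were named after their values were seen. Between replicates the chi-square per degree of freedom was at least 5.20, so that no library was a duplicate. Promoter and Xbp1 sequences were read from GRCm39 at GENCODE M39 positions.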

Additional observations from a re-analysis of the deposited data

Results flagged for a closer look

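In 46 groups of 4 libraries, covering the 10 sensors and effectors and the 13 genes with the smallest p in their lists, the gap of the most extreme library to its nearest neighbour was compared with the range by Dixon's criterion at the 95% level. It was met in 3, where chance gives about 1 in 20 groups, or 2.3. Trib3 had 7.62 CPM in TG-1 against 1.76 to 2.14 in the other TG libraries (gap over range 0.934). Ero1a had 28.1 CPM in TG-2 against 31.0 to 31.2 (0.934), and this library was the lowest of a narrow group. Eif2s1 had 37.6 CPM in TG-3 against 32.0 to 32.1 (0.997), still below the WT libraries. Chac1, which is outside this count because it was named after its values were seen, had 41.0 CPM in TG-1 against 2.67 to 5.41 (0.928). Trib3 and Chac1 were extreme in the same TG library, and the cause was not tested.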

How the results depend on the processing

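The edgeR call of Eif2ak3 was the one call among the 10 genes. The number called became 3 with DESeq2 (Eif2ak3, Rtcb and Atf6b), 3 with limma voom (Eif2ak3, Atf6 and Atf6b) and 0 with total counts, as well as 0 in the libraries with Y-linked counts and 0 in those without. It ran from 0 to 3 when 1 library was left out. The other UPR genes called lower, 30 in number, became 10 with total counts, 9 in the libraries with Y-linked counts and 18 in those without, and 15 to 29 with a library left out, lowest without TG-1 or TG-2. The share of all tested genes called lower, 9.65%, became 2.20%, 0.857% and 5.29% in the first 3 of these, 4.61% without TG-1 and 4.72% without TG-2. Total counts moved the median of all genes to 0.12. The 1 gene called higher became 2 with DESeq2, with no filter and in the libraries without Y-linked counts, and 1 to 2 with a library left out. The log2 fold changes of Xbp1 and Trib3, both near 0, turned sign. That of Xbp1 was -0.0008 with DESeq2, -0.19 in the libraries without Y-linked counts and -0.055 to 0.12 with a library left out, and that of Trib3 was -0.074 with the replicate block, -0.0077 in the libraries without Y-linked counts and -0.74 to 0.43. The log2 ratio of Dnajb9 to Xbp1 stayed at -0.82 with a p of 0.125 by sign flips over replicate numbers and 0.0556 by permutation within Y-linked kinds, and ran from -0.99 to -0.67 with a library left out, where p was 0.0571, in each case the smallest the design allows. That of Atf6b to Atf6 ran from -0.024 to 0.060 and that of Trib3 to Atf4 from -0.35 to 0.44. With the longest transcript as the length, 4 of the 10 ranks by level changed. The cause of these moves was not tested. Replicate numbers were shared between the groups, and deviations of same-numbered libraries correlated at 0.076, 0.067, 0.286 and 0.231. Libraries of different numbers were not compared in this way, so that these values cannot decide on pairing. The numbers were not taken as pairs in the main test. With the replicate block 1 of the 10 genes was called, with 31 others lower and 1 higher. Genes near 50 counts, such as Ddit3, are limited by depth.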
